A study of Drosophila melanogaster with 20 samples.

Results

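Heat shock proteins are molecular chaperones that bind unfolded proteins, and many of their genes are transcribed at a low level until heat or another stress activates the heat shock transcription factor HSF. The genes described here are the fly's small heat shock protein genes Hsp22, Hsp23, Hsp26, Hsp27 and Hsp67Bc, the Hsp70-family gene Hsp68, the Hsp90 gene Hsp83, the Hsp40 co-chaperone gene DnaJ-1 and Hsf, which encodes the regulator. They were chosen by name, are 9 of the 17558 gene IDs in the count table, and were compared across genotypes and between the libraries of each genotype.

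Total RNA was sequenced from adult Drosophila melanogaster heads of 4 genotypes, with 5 libraries each, to ask what the loss of FNE and RBP9 does to RNA levels. Both proteins bind RNA in neurons and are relatives of ELAV. Δfne females carried fneΔ over fneKOZ2 and Δfne males carried either allele, on the X chromosome. Δrbp9 flies carried rbp9P2690 over the deficiency Df(2L)ED206, which removes neighbouring genes as well, and ΔfneΔrbp9 flies combined the lesions of both. The wild type was w1118. All flies were labelled untreated, were raised at 25 °C and were decapitated under CO2 anaesthesia 1 day after eclosion, with males and females in each genotype, and the labels name no heat treatment.

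Libraries held between 10289950 and 25325636 counts. The study's methods describe the libraries of a genotype as independent replicates, each made from a pool of heads with as many males as females, and the p-values measure the spread between such pools. Levels are CPM, the count scaled to the library total and the TMM factor, and the CPM of a gene in bulk heads cannot tell fewer expressing cells from less RNA per cell. The targeted genes were lower in their mutants: Rbp9 averaged 18.9 CPM in Δrbp9 and 18.3 CPM in ΔfneΔrbp9, against 483 CPM in wild type, and fne averaged 86.5 CPM in Δfne and 88.1 CPM in ΔfneΔrbp9, against 194.5 CPM in wild type. Summed neuronal markers lay between 2085 and 2438 CPM in all libraries. Summed gut markers were high in single libraries: 259 CPM in Δfne library 5, 107 and 44.1 CPM in Δrbp9 libraries 1 and 3, and 73.0 CPM in ΔfneΔrbp9 library 5. The remaining mutant libraries lay between 1.81 and 8.05 CPM, and wild type between 0 and 6.95 CPM. Some other markers were lower in a mutant than in wild type with no overlap. Summed photoreceptor markers were at 14111 to 14682 CPM in Δrbp9, against 15848 to 17586 CPM in wild type. Summed glial markers were at 2754 to 2997 CPM in Δrbp9 and 2790 to 2933 CPM in ΔfneΔrbp9, against 3014 to 3495 CPM in wild type, and summed muscle markers at 10796 to 12285 CPM and 10166 to 11981 CPM in the same mutants, against 12456 to 15682 CPM in wild type. Summed haemocyte markers were at 284 to 369 CPM in Δfne, against 387 to 566 CPM in wild type. Summed sex markers spanned 3153 to 19932 CPM in wild type, a range that held all mutant libraries. This sum adds yolk protein genes, of females, to roX RNAs, of males, so it cannot show the share of either sex. The part of all these markers in the results was not tested.

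The main pattern was a division of the libraries within genotypes. Hsp26, Hsp27, Hsp68 and DnaJ-1 were each higher in Δrbp9 libraries 1, 2 and 3 and in ΔfneΔrbp9 libraries 1 and 2 than in the other libraries of the same genotypes. The libraries of Hsp26, Hsp27 and Hsp68 overlapped those of wild type in every mutant, and those of DnaJ-1 did not in Δrbp9 and ΔfneΔrbp9. Hsp23 followed the genotype more closely and was higher in ΔfneΔrbp9 than in wild type in every library. Hsp83 and Hsp67Bc were at most 1.38-fold and 1.42-fold higher in a mutant than in wild type, both in Δrbp9, and Hsf was nearly constant.

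**Figure D1:**
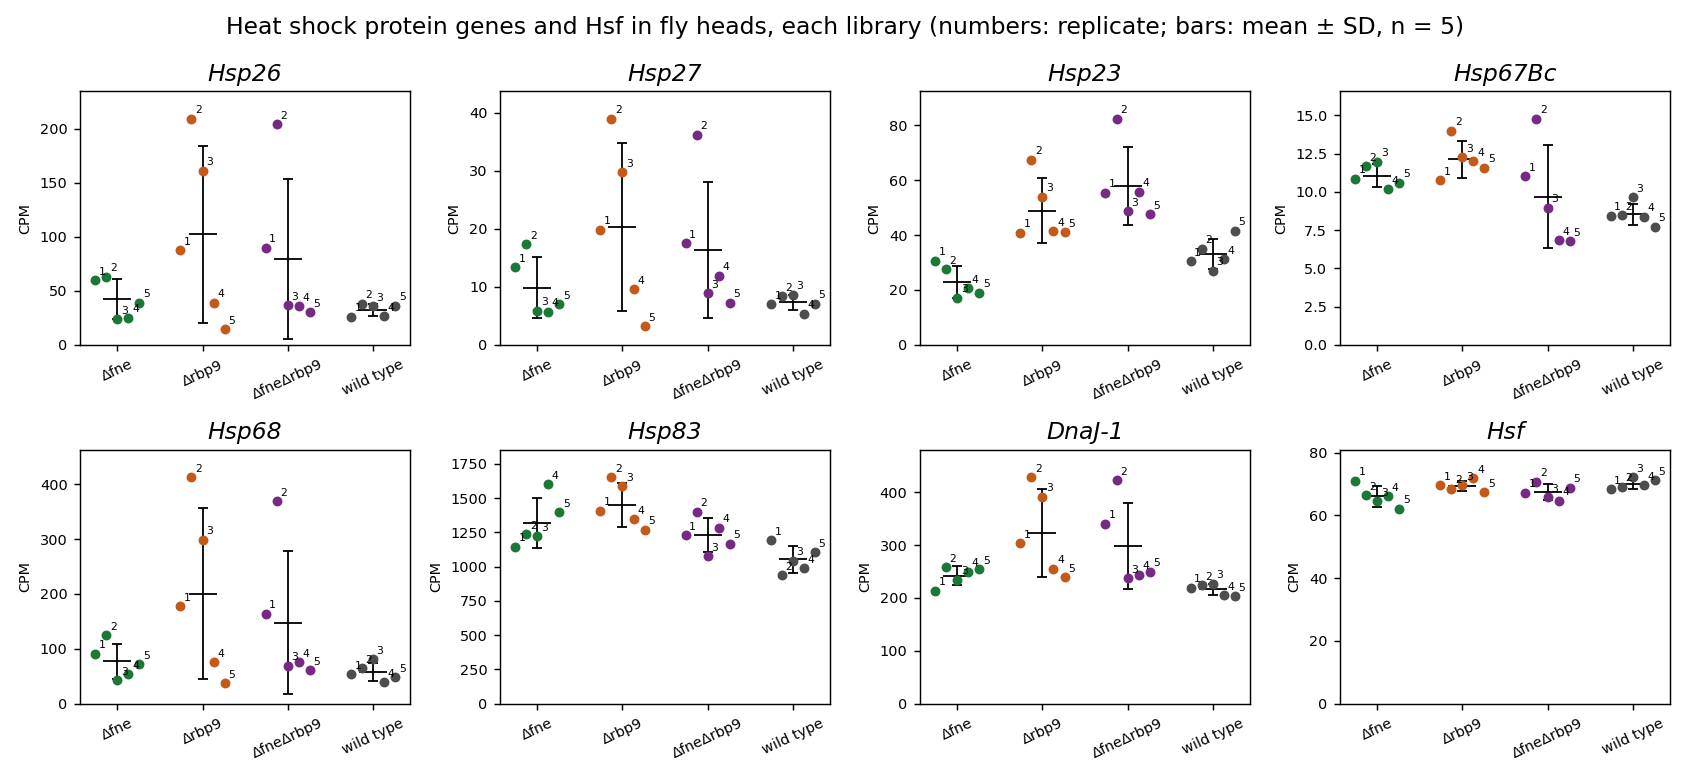
Level of the 8 genes with reads in each library, in CPM on a linear axis from 0, for Δfne, Δrbp9, ΔfneΔrbp9 and wild type. Points are libraries marked with their replicate number, and bars are the mean ± SD (n = 5). Hsp26, Hsp27 and Hsp68 spread widely within Δrbp9 and ΔfneΔrbp9, with libraries 2 at the top, while Hsf lies between 62.2 and 72.1 CPM throughout.

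Of the 9 genes, 8 passed the filter of a mean normalized count above 10 and were tested with 10538 genes in all. A gene was called at an edgeR quasi-likelihood p below 0.01 after Benjamini-Hochberg adjustment with an absolute log2 fold change above 0.5. In Δfne, 0 of the 8 were called against wild type, where 8.08% of all genes were called. At an unadjusted p below 0.05 this comparison had 4 of the 8, and DESeq2 called 0 as well. In Δrbp9, 1 was called (DnaJ-1, higher; background 8.08%), and in ΔfneΔrbp9, 1 was called (Hsp23, higher; background 9.55%). At an unadjusted p below 0.05 there were 7 of the 8 in Δrbp9 and 6 in ΔfneΔrbp9. The share of all genes at this unadjusted p is not given here. It is at least 19.3% in Δfne, 23% in Δrbp9 and 25.1% in ΔfneΔrbp9, the shares at an edgeR adjusted p below 0.01. DESeq2 called 4 in Δrbp9 (Hsp23, Hsp67Bc, Hsp68 and DnaJ-1) and 1 in ΔfneΔrbp9, and its share over all genes is not given here. On leaving out 1 library at a time, the count was 0 to 5 in Δrbp9, with the highest without Δrbp9 library 5, and 1 in each of 10 fits in ΔfneΔrbp9. Over all genes these fits called 771 to 899 in Δrbp9 and 933 to 1042 in ΔfneΔrbp9. The median log2 fold change of the 8 was 0.35 in Δfne, 0.58 in Δrbp9 and 0.64 in ΔfneΔrbp9, beside a median of 0 over all genes tested in each comparison. The libraries of a mutant did not overlap those of wild type for 1 of the 8 in Δfne (17.6% of all genes), 3 in Δrbp9 (21.3%) and 2 in ΔfneΔrbp9 (23.1%), all of them higher. The 3 comparisons share the wild-type libraries.

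Hsf, the transcription factor that binds heat shock elements and drives the inducible genes, lies on chromosome arm 2R at 18130303-18134634 (minus strand, release 6 assembly). Its level was 71.1, 66.4, 64.5, 66.1 and 62.2 CPM in Δfne, 69.7, 68.5, 69.7, 71.9 and 67.4 CPM in Δrbp9, 67.3, 70.8, 65.9, 64.7 and 68.8 CPM in ΔfneΔrbp9, and 68.3, 69.1, 72.1, 69.6 and 71.2 CPM in wild type. The groups overlapped, and no fold change against wild type was called: log2 values were -0.09 ± 0.04 (SE) in Δfne, -0.01 ± 0.04 in Δrbp9 and -0.05 ± 0.04 in ΔfneΔrbp9, with edgeR adjusted p of 0.0699, 0.80 and 0.256. Its within-group SD of 0.0494 on the log2 scale was small, and 95.3% of the genes tested had a larger one. HSF is known to be controlled mainly after transcription, by trimer formation and nuclear entry, which RNA counts do not measure.

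Of the small heat shock genes, 5 lie among the 8 genes looked at here in one cluster of 14.2 kb on chromosome arm 3L (9371511-9385694). Further annotated genes overlap this span, among them asRNA:CR43481 and the pseudogene CR43483. They encode ATP-independent holdases with an alpha-crystallin domain, which keep unfolding proteins soluble. Hsp22, the member known for its mitochondrial location, had 0 counts in all 20 libraries. Whether this 0 is a level is not known. In the annotation of Ensembl release 115, all of the 1900 exon bases of Hsp22 (100%) also belong to exons of CG4456 on the same strand. CG4456 itself had a highest count of 1. The counts were made on release 96, whose annotation of these genes was not examined. Reads from such shared bases cannot be assigned to either gene by a counter that leaves out ambiguous reads, and the setting used is not given in the sources used here. With 0 counts, Hsp22 did not pass the count filter and was not tested, and the part of the overlap in this was not tested either. Along the arm, Hsp67Bc lies at 9371511-9372497 (minus strand), Hsp22 at 9372931-9374964 (plus), Hsp26 at 9376418-9377427 (minus), Hsp23 at 9381882-9382765 (plus) and Hsp27 at 9384063-9385694 (plus), all positions in the release 6 assembly.

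**Figure D2:**
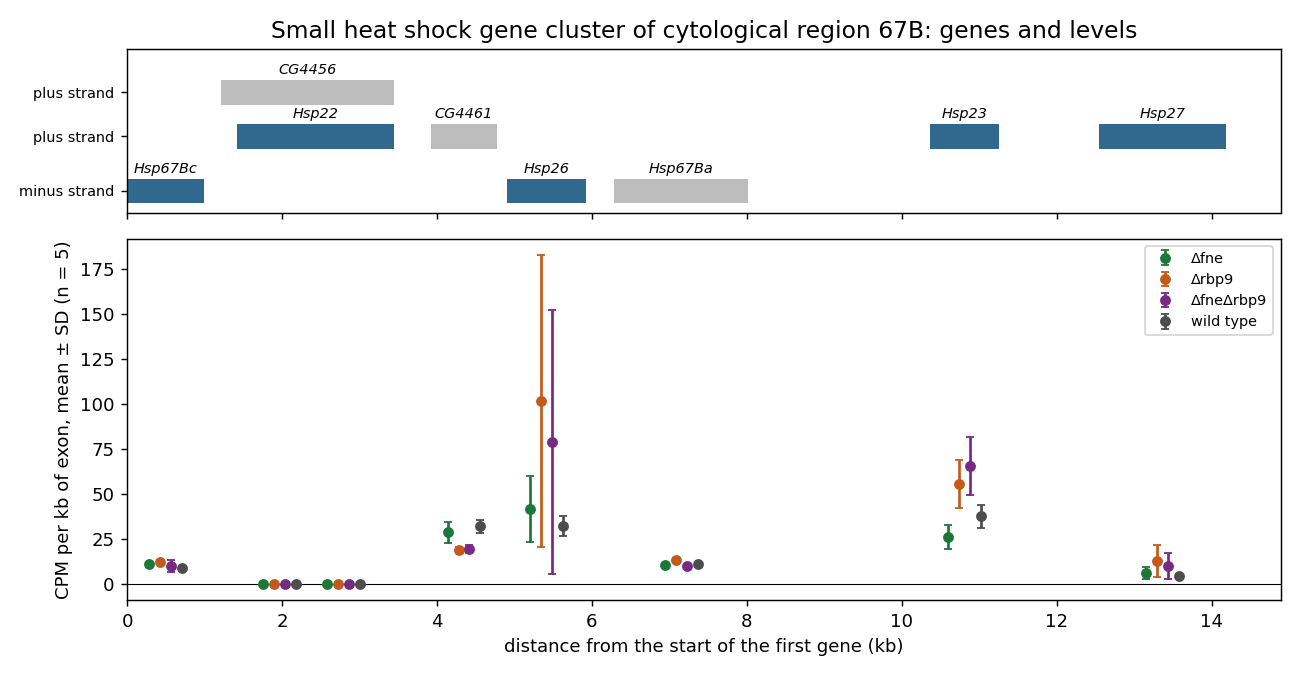
The small heat shock gene cluster, with 8 of its genes as boxes by strand against the distance in kb from the start of the first gene. The genes described here are blue and others are grey, with CG4456 drawn above Hsp22. Below are the mean ± SD (n = 5) in CPM per kb of exon for each genotype at each gene. Neighbours differ in level and in spread: Hsp26 averages 101 CPM per kb in Δrbp9 with an SD of 81.2, while Hsp67Bc averages 12.3 with an SD of 1.21.

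Per kb of exon, wild-type heads held 37.4 ± 6.23 CPM of Hsp23, 32.1 ± 5.79 of Hsp26, 8.64 ± 0.707 of Hsp67Bc and 4.47 ± 0.790 of Hsp27 (SD, n = 5), so Hsp23 and Hsp26 lay within 1 SD of each other, and Hsp67Bc and Hsp27 were lower. On the same scale Hsp83 was the most abundant of the genes described, at 356 ± 33.6, followed by DnaJ-1 at 99.97 ± 5.01, Hsp68 at 25.6 ± 7.21 and Hsf at 24.1 ± 0.536. Hsp68 lay within 1 of its own SDs of both Hsp26 and Hsf, while Hsp26 and Hsf were farther apart than the SD of either.

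Hsp26 and Hsp27, which are expressed during development as well as on heat shock, moved together. Hsp26 measured 59.8, 63.1, 23.9, 25.1 and 38.9 CPM in Δfne, 87.4, 209.6, 161, 39.2 and 14.4 CPM in Δrbp9, 89.8, 205, 36.8, 35.6 and 30.4 CPM in ΔfneΔrbp9, and 25.9, 38.2, 35.7, 26.3 and 36.1 CPM in wild type. In Δrbp9, 4 libraries lay above every wild-type library and library 5 lay below every one, a range of 14.6-fold within the genotype against 1.47-fold in wild type. The log2 fold changes were 0.37 ± 0.59 (SE) in Δfne, 1.66 ± 0.59 in Δrbp9 and 1.31 ± 0.59 in ΔfneΔrbp9, none of them called (edgeR adjusted p = 0.688, 0.0342 and 0.0922).

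Hsp27 measured 13.4, 17.3, 5.88, 5.68 and 6.97 CPM in Δfne, 19.8, 39.0, 29.8, 9.63 and 3.19 CPM in Δrbp9, 17.5, 36.2, 8.89, 11.9 and 7.23 CPM in ΔfneΔrbp9, and 7.02, 8.36, 8.63, 5.40 and 7.07 CPM in wild type. The groups overlapped, and its highest and lowest Δrbp9 libraries were those of Hsp26. Against wild type the log2 fold change was 0.40 ± 0.54 (SE) in Δfne, 1.48 ± 0.53 in Δrbp9 and 1.18 ± 0.53 in ΔfneΔrbp9, again none called (edgeR adjusted p = 0.621, 0.0342 and 0.0903). The lowest Hsp27 library held 62 counts. The ratio of Hsp26 to Hsp27 CPM stayed between 2.98 and 5.65 over the 20 libraries.

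Hsp68 encodes an inducible Hsp70-type chaperone and lies apart from the cluster, on 3R at 24055080-24057310 (minus strand). It measured 90.8, 125, 43.2, 54.1 and 71.5 CPM in Δfne, 178, 412, 299, 75.2 and 37.3 CPM in Δrbp9, 164, 369, 69.5, 75.5 and 61.0 CPM in ΔfneΔrbp9, and 53.3, 64.6, 80.7, 38.8 and 48.6 CPM in wild type. The groups overlapped in each comparison: 2 Δfne, 3 Δrbp9 and 2 ΔfneΔrbp9 libraries exceeded all wild-type libraries, and those of Δrbp9 and ΔfneΔrbp9 were the ones highest in Hsp26 and Hsp27. The log2 fold change was 0.42 ± 0.56 (SE) in Δfne, 1.81 ± 0.56 in Δrbp9 and 1.38 ± 0.56 in ΔfneΔrbp9, with edgeR adjusted p of 0.614, 0.0169 and 0.0615, so no call was made. Although the genes sit on different chromosome arms, the ratio of Hsp68 to Hsp26 lay between 1.35 and 2.59 in all 20 libraries while Hsp68 itself spanned 37.3 to 412 CPM.

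DnaJ-1, whose protein stimulates the ATPase of Hsp70 and hands it substrates, lies on 3L at 5750029-5752189 (minus strand) and was called in Δrbp9 against wild type. It measured 214, 258, 235, 249 and 254 CPM in Δfne, 303, 428, 392, 255 and 239 CPM in Δrbp9, 340.1, 423, 238, 244 and 249.7 CPM in ΔfneΔrbp9, and 219.5, 224, 227, 206 and 203 CPM in wild type. All Δrbp9 and all ΔfneΔrbp9 libraries lay above the wild-type range, as was so for 10.5% and 10.9% of all genes, and libraries 1, 2 and 3 of Δrbp9 and 1 and 2 of ΔfneΔrbp9 stood well above the rest. DnaJ-1 rose 1.50-fold in Δrbp9 (log2 0.58 ± 0.16 SE, edgeR adjusted p = 0.00732). The call was lost on leaving out any 1 wild-type library or any 1 of Δrbp9 libraries 1, 2 and 3, with log2 values between 0.46 and 0.67 over all 10 such fits. In ΔfneΔrbp9 the log2 fold change of 0.47 ± 0.16 was not called (edgeR adjusted p = 0.0255), nor was that of 0.17 ± 0.16 in Δfne (adjusted p = 0.469).

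**Figure D3:**
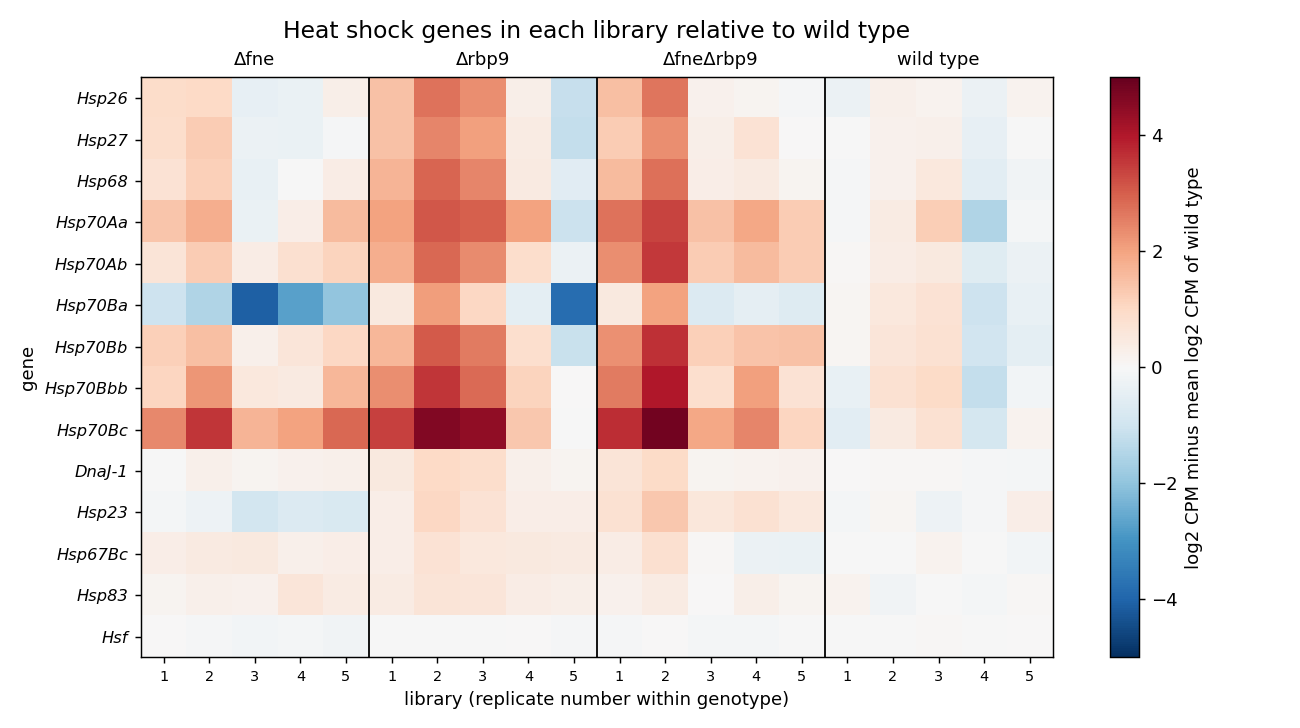
Log2 CPM of each gene in each library minus the mean log2 CPM of the 5 wild-type libraries, for the genes described and the 6 Hsp70 genes, with libraries in columns by genotype (Δfne, Δrbp9, ΔfneΔrbp9, wild type). The colour scale runs from -5 (blue) to 5 (red). Hsp68 stands at 2.89 in Δrbp9 library 2 and at -0.57 in Δrbp9 library 5, and these are also the highest and the lowest Δrbp9 library for Hsp26, Hsp27 and the Hsp70 genes.

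The order of the Δrbp9 libraries was the same, 2, 3, 1, 4 and then 5, for Hsp26, Hsp27, Hsp68, Hsp83 and DnaJ-1, an order found for 0.693% of the genes tested. The 6 Hsp70 genes had it as well. After the genotype means were subtracted from log2 CPM, Pearson's r over the 20 libraries was 0.98 for Hsp26 with Hsp68, 0.97 for Hsp27 with Hsp26 and also with Hsp68, and 0.90 for Hsp68 with DnaJ-1. For Hsp68 it was 0.69 with Hsp23, 0.63 with Hsp67Bc, 0.47 with Hsp83 and 0.33 with Hsf. The genes most like each were then sought over the 20 libraries without that subtraction, and only among genes other than those described here. The 3 most like each of Hsp26, Hsp27, Hsp68 and DnaJ-1 were all Hsp70 genes, with r between 0.872 and 0.937. The gene most like Hsp67Bc was CG7519 (0.87), that most like Hsp83 was CG2147 (0.847) and that most like Hsf was CG14034 (0.735). These values are descriptions over libraries that share 4 genotypes, and all genes of a library share its depth. By the within-group SD of log2 CPM (0.5 CPM added), Hsp26 ranked 93, Hsp68 ranked 102 and Hsp27 ranked 117 among 10538 genes, with SDs of 1.04, 0.968 and 0.899 beside a median of 0.119.

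The 5 high libraries overlapped the others in depth, and Δrbp9 libraries 2 and 3 had the lowest shares of mitochondrial counts. Δrbp9 libraries 1, 2 and 3 held 15266373, 18334442 and 17142591 counts with 4.77%, 3.92% and 4.22% of counts on the mitochondrial genome. ΔfneΔrbp9 libraries 1 and 2 held 17398297 and 18757832 counts with 5.00% and 5.98%. The other 15 libraries covered 4.41% to 6.12%. Collection date, handling and RNA integrity are not given in the labels, and their part in the division of the libraries was not tested.

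The fits were repeated without these 5 libraries, an alternative chosen after the data had been seen. In Δrbp9, then with 2 libraries, the log2 fold changes against wild type were -0.30 ± 0.40 (SE) for Hsp26, -0.23 ± 0.47 for Hsp27, -0.04 ± 0.37 for Hsp68 and 0.19 ± 0.07 for DnaJ-1 (edgeR adjusted p = 0.68, 0.80, 0.971 and 0.0702). In ΔfneΔrbp9, then with 3, they were 0.08 ± 0.34, 0.34 ± 0.40, 0.26 ± 0.32 and 0.17 ± 0.06 for the same genes (edgeR adjusted p = 0.906, 0.578, 0.604 and 0.0467). The members called were then 0 in each of Δfne, Δrbp9 and ΔfneΔrbp9 against wild type. With the libraries numbered 4 and 5 of every genotype only, also chosen after the data had been seen, the counts called were 1, 0 and 0. In both sets the libraries were kept or dropped with their heat shock gene levels known, so the values describe what the averages rest on and are no separate test.

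**Figure D4:**
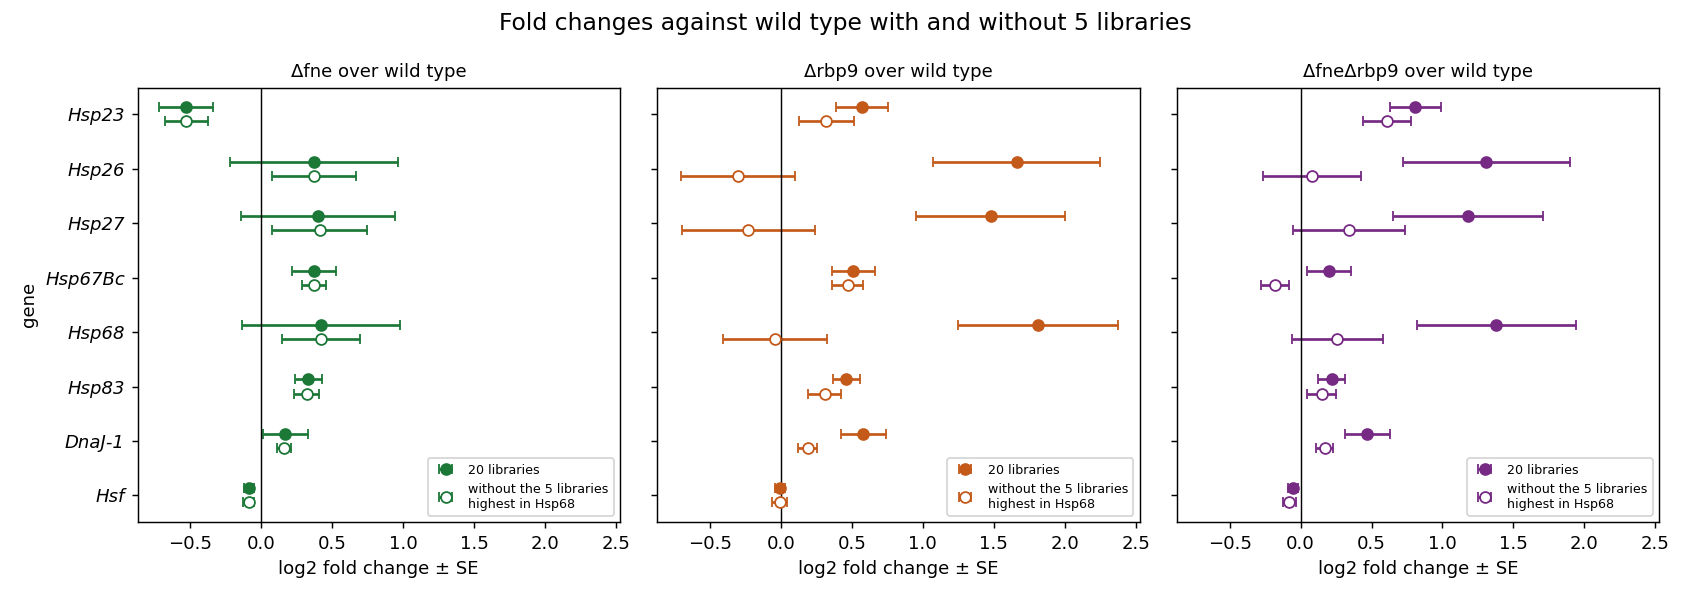
Log2 fold change ± SE of each gene against wild type in Δfne, Δrbp9 and ΔfneΔrbp9, from the fit of 20 libraries (filled) and from the fit without the 5 libraries highest in Hsp68 (open). Hsp26, Hsp27 and Hsp68 in Δrbp9 move from between 1.48 and 1.81 to between -0.30 and -0.04. No Δfne or wild-type library was left out, so the Δfne values, such as -0.53 for Hsp23, had little room to move.

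Hsp23, a small heat shock gene also expressed in unstressed tissue, was called in ΔfneΔrbp9 over both wild type and Δfne. It measured 30.7, 27.6, 17.2, 20.6 and 19.0 CPM in Δfne, 40.9, 67.4, 54.1, 41.3 and 41.1 CPM in Δrbp9, 55.5, 82.5, 48.6, 55.8 and 47.6 CPM in ΔfneΔrbp9, and 30.5, 35.0, 27.1, 31.2 and 41.5 CPM in wild type. All ΔfneΔrbp9 libraries lay above all wild-type and all Δfne libraries, as was so for 10.9% and 10.7% of all genes, and 3 Δfne libraries lay below all wild-type libraries. Hsp23 rose 1.76-fold in ΔfneΔrbp9 over wild type (log2 0.81 ± 0.18 SE, edgeR adjusted p = 0.00159) and 2.54-fold over Δfne (log2 1.34 ± 0.19, adjusted p = 1.5e-05). The second of these comparisons called 1 of the 8 genes, beside 6.76% of all genes, and the groups did not overlap for this 1 gene, beside 22% of all genes.

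The other Hsp23 comparisons were not called. The log2 fold change was -0.53 ± 0.19 (SE) in Δfne and 0.57 ± 0.18 in Δrbp9 against wild type (edgeR adjusted p = 0.0378 and 0.0209), and 0.24 ± 0.18 in ΔfneΔrbp9 against Δrbp9 (adjusted p = 0.343). In ΔfneΔrbp9 against wild type, the value was between 0.65 and 0.91 and called in each fit that left out 1 library. Without the 5 high libraries it was 0.61 ± 0.17 (adjusted p = 0.0156), and with libraries 4 and 5 only it was 0.50 ± 0.14 (adjusted p = 0.0479), so the call ended in both. Over Δfne the call remained in both, at 1.14 and 1.37. With libraries 4 and 5 only, Hsp23 was also called lower in Δfne than in wild type (log2 -0.87 ± 0.14, adjusted p = 0.00776).

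The genes most like Hsp23 over the 20 libraries were ranked by Pearson's r of log2 CPM, without the genes described here. The first 3 were Fbp2 (0.914), Jhbp5 (0.896) and Lsp1alpha (0.894). Fbp2 averaged 6.55 (Δfne), 51.6 (Δrbp9) and 104 CPM (ΔfneΔrbp9), against 16.1 CPM in wild type, and was called in all 3. Lsp1alpha and the marker Lsp2 encode larval serum proteins of the fat body, as background. Of the 5 fat body markers, 2 were called in Δfne, 1 in Δrbp9 and 2 in ΔfneΔrbp9 against wild type. Fbp1, 1 of the 5 markers, averaged 67.7 (Δfne), 215 (Δrbp9) and 554 CPM (ΔfneΔrbp9), against 138.5 CPM in wild type. The directions of the marker calls and the levels of the other markers are not given here. The summed markers did not show the rise of Fbp1 in ΔfneΔrbp9, at 4160 to 6418 CPM there and 3574 to 9855 CPM in wild type. They were at 2893 to 6364 CPM in Δfne and 4313 to 5859 CPM in Δrbp9, so the groups overlapped. No fat body marker was at 0, and their part in the Hsp23 values was not tested.

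Hsp67Bc, whose protein is known to act with the BAG protein Starvin in protein quality control, was among the lowest of these genes. It measured 10.8, 11.7, 12.0, 10.2 and 10.6 CPM in Δfne, 10.8, 14.0, 12.3, 12.0 and 11.6 CPM in Δrbp9, 11.0, 14.8, 8.95, 6.85 and 6.77 CPM in ΔfneΔrbp9, and 8.45, 8.46, 9.64, 8.37 and 7.71 CPM in wild type. Every Δfne and every Δrbp9 library lay above the wild-type range, as was so in the higher direction for 8.62% and 10.5% of genes, whereas ΔfneΔrbp9 libraries lay on either side of it. The log2 fold change was 0.37 ± 0.15 (SE) in Δfne, 0.51 ± 0.15 in Δrbp9 and 0.20 ± 0.16 in ΔfneΔrbp9, with edgeR adjusted p of 0.0711, 0.0136 and 0.336. The last value reversed, to -0.18, without the 5 high libraries. Hsp67Bc was then called lower in ΔfneΔrbp9 than in Δfne (log2 -0.55 ± 0.10, edgeR adjusted p = 0.00144) and than in Δrbp9 (log2 -0.64 ± 0.12, adjusted p = 0.00605). The ΔfneΔrbp9 libraries left out, 1 and 2, were the highest of that genotype for Hsp67Bc, at 11.0 and 14.8 CPM. Leaving them out lowers that mean by selection, so these calls are no separate test.

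Hsp83, on 3L at 3192969-3197059 (plus strand), encodes the cytosolic Hsp90, which is abundant without stress and folds kinases and steroid receptors. It measured 1144, 1235, 1223, 1599.9 and 1397 CPM in Δfne, 1407, 1651, 1586, 1345 and 1270.4 CPM in Δrbp9, 1228.5, 1399, 1075, 1283 and 1167 CPM in ΔfneΔrbp9, and 1191, 937, 1043.5, 989 and 1106 CPM in wild type. All Δrbp9 libraries lay above the wild-type range, as for 10.5% of all genes, and so did 4 Δfne and 3 ΔfneΔrbp9 libraries. Its log2 fold change was 0.33 ± 0.09 (SE) in Δfne, 0.46 ± 0.09 in Δrbp9 and 0.22 ± 0.09 in ΔfneΔrbp9 (edgeR adjusted p = 0.0127, 0.000791 and 0.0707). The Δrbp9 value passed the p threshold, as did 23% of all genes, but not the fold change threshold.

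An interaction term on the log2 scale compared ΔfneΔrbp9 with the added effects of Δfne and Δrbp9. Of the 8 genes, 1 was called (Hsp83), beside 8.97% of all genes. The Hsp83 interaction was -0.56 ± 0.13 (SE, edgeR adjusted p = 0.00346), so its level in ΔfneΔrbp9 was below the sum of the single-mutant differences. Leaving out Δfne library 4, the highest for Hsp83, gave -0.49 and ended the call, and the call also ended without the 5 high libraries, at -0.48 ± 0.16 (adjusted p = 0.0572), and with libraries 4 and 5 only, at -0.62 ± 0.13 (adjusted p = 0.031). The interaction was 0.78 ± 0.26 for Hsp23 (adjusted p = 0.032) and -0.68 ± 0.22 for Hsp67Bc (adjusted p = 0.024), neither called. Hsp67Bc became called for the interaction without ΔfneΔrbp9 library 2 (-0.89, adjusted p = 0.000442), without the 5 high libraries (-1.01 ± 0.15, adjusted p = 0.000431) and with libraries 4 and 5 only (-1.16 ± 0.14, adjusted p = 0.00612). All of these fits left out ΔfneΔrbp9 library 2, the highest of its genotype for Hsp67Bc, so the calls are no separate test. The comparison of ΔfneΔrbp9 with Δrbp9 called 0 of the 8, beside 4.66% of all genes. It had 1 at an unadjusted p below 0.05, DESeq2 called 0, and the groups overlapped for each of the 8, while they did not for 22.1% of all genes.

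The list of other heat shock family genes held 16 in the table, of which 14 were tested. Against wild type, 1 was called in Δfne, 4 in Δrbp9 and 6 in ΔfneΔrbp9, beside 8.08%, 8.08% and 9.55% of all genes, with median log2 fold changes of 0.22, 0.27 and 0.28. On leaving out 1 library at a time the counts were 1, 2 to 7 and 2 to 6 in the same order. The genes called higher, 2 in Δrbp9 and 5 in ΔfneΔrbp9, were all Hsp70 copies. Among the Hsp70 genes, the main heat-induced chaperones, Hsp70Ab measured 14.9, 23.5, 12.6, 16.6 and 21.0 CPM in Δfne, 33.8, 70.8, 49.7, 17.7 and 7.81 CPM in Δrbp9, 47.8, 110.2, 23.3, 28.7 and 23.2 CPM in ΔfneΔrbp9, and 10.1, 12.5, 13.4, 6.26 and 7.83 CPM in wild type. All ΔfneΔrbp9 libraries were above the wild-type range. Hsp70Ab rose in ΔfneΔrbp9 (log2 2.23 ± 0.51 SE, edgeR adjusted p = 0.00163) and in Δrbp9 (1.84 ± 0.50, adjusted p = 0.0077), and without the 5 high libraries the first was 1.31 ± 0.27 (adjusted p = 0.00236) and the second 0.32 ± 0.32 (adjusted p = 0.564). With libraries 4 and 5 only, the first was 1.87 ± 0.36 (adjusted p = 0.0136), so that neither was called.

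Hsp70Bc was also called higher in both, and Hsp70Aa, Hsp70Bb and Hsp70Bbb in ΔfneΔrbp9. In wild type these genes had low counts per library: 5 to 16 for Hsp70Bc, 5 to 32 for Hsp70Aa, 11 to 42 for Hsp70Bb and 5 to 25 for Hsp70Bbb. Leaving out 1 library ended the ΔfneΔrbp9 call of Hsp70Aa in 7, of Hsp70Bb in 6, of Hsp70Bbb in 8 and of Hsp70Bc in 3 of 10 fits, and the Δrbp9 calls of Hsp70Ab in 7 and of Hsp70Bc in 1. Without the 5 high libraries none of the calls of these other copies remained, with log2 values in ΔfneΔrbp9 of 1.32 for Hsp70Aa, 1.21 for Hsp70Bb, 1.08 for Hsp70Bbb and 1.76 for Hsp70Bc, and of 0.66 for Hsp70Bc in Δrbp9. The Hsp70 copies are nearly identical in sequence, so how reads were divided among them is uncertain, and their calls are not independent of each other. Hsp70Ba had a negative fold change in Δfne, at 0.593 to 4.90 CPM in Δfne and 4.96 to 16.9 CPM in wild type (log2 -2.15 ± 0.78 SE, edgeR adjusted p = 0.0427, not called). Unlike the other copies it was not called in ΔfneΔrbp9, at 6.25 to 41.4 CPM, nor in Δrbp9, at 0.72 to 43.3 CPM, and both overlapped wild type. ΔfneΔrbp9 libraries 3, 4 and 5 were at 6.25, 7.44 and 6.51 CPM, within the wild-type range. The ratio of Hsp70Ab to Hsp70Ba was 3.03 to 21.2 in Δfne, 1.64 to 10.9 in Δrbp9 and 2.66 to 3.86 in ΔfneΔrbp9, against 0.79 to 1.26 in wild type, with no overlap with wild type.

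Neither l(2)efl nor CG4461 had the Δrbp9 library order of Hsp26. The small heat shock gene l(2)efl fell in Δfne, to 16.8 to 29.7 CPM, against 31.4 to 64.2 CPM in wild type (log2 -1.12 ± 0.15 SE, edgeR adjusted p = 7.07e-06). With libraries 4 and 5 only it was -0.79 ± 0.23 and not called (adjusted p = 0.0533). CG4461, a small heat shock gene of the same cluster as Hsp26, fell by 0.75 on the log2 scale in Δrbp9 and by 0.72 in ΔfneΔrbp9 (edgeR adjusted p = 5.68e-05 and 7.2e-05), with no overlap in either, and CG7409 fell by 0.57 in Δrbp9 (adjusted p = 0.00021). Without the 5 high libraries the calls in Δrbp9 were lost for both, at -0.69 (adjusted p = 0.0152) and -0.50 (adjusted p = 0.0351), while that of CG4461 in ΔfneΔrbp9 remained at -0.79. The heat shock RNA gene lncRNA:Hsromega and the co-chaperone gene stv were not called, with log2 values in ΔfneΔrbp9 of 0.05 and 0.44.

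Chaperone genes that are expressed without stress moved by less than the fold change threshold or did not pass the test, with few exceptions. Of 17 constitutive cytosolic and organelle chaperones tested, 0 were called against wild type in any mutant by edgeR or DESeq2, beside 8.08% of all genes in Δfne, 8.08% in Δrbp9 and 9.55% in ΔfneΔrbp9. At an unadjusted p below 0.05 there were 10 in Δfne, 13 in Δrbp9 and 9 in ΔfneΔrbp9. By edgeR adjusted p with no fold change threshold there were 5, 11 and 4, beside 19.3%, 23% and 25.1% of all genes. The share of all genes at the unadjusted p is at least as large and is not given here. Hsc70-4, the main constitutive Hsp70, was 0.26 higher in Δfne, 0.29 in Δrbp9 and 0.10 in ΔfneΔrbp9 on the log2 scale. Of 18 co-chaperones, the mitochondrial genes CG5504 (log2 0.64) and Roe1 (0.53) rose in Δrbp9, and Stip1, which links Hsp70 to Hsp90, was not called at 0.36, nor was Droj2 in any comparison. Of 12 genes of the unfolded protein response of the endoplasmic reticulum, 0 were called by edgeR or DESeq2 in the 6 comparisons, in which 4.66% to 9.55% of all genes were, with 1 to 5 at an unadjusted p below 0.05. Of 12 oxidative and JNK stress genes, 1 was called in Δrbp9, beside 8.08% of all genes. It was Thor, which encodes the translation repressor 4E-BP and fell by 1.14 on the log2 scale in Δrbp9 (edgeR adjusted p = 0.00154). Without the 5 high libraries its value was -0.86 (adjusted p = 0.14) and the call ended.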

How the data were processed

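Total RNA of fly heads was prepared with a stranded total RNA kit from 725 ng of RNA and sequenced as paired reads of 51 bases. Per the labels and the study's methods, the authors aligned reads to dm6 with STAR and made the deposited whole-number counts per gene with featureCounts of Subread, on Ensembl release 96, within snakePipes. Neither tool versions nor the settings for strand and for reads shared by genes are given in the sources used here. A further deposited table holds the authors' own DESeq2 comparison of ΔfneΔrbp9 with wild type (base mean, log2 fold change, its error, test score and p-values), which was not used.

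The 20 columns of counts were mapped to libraries by name. Of 17558 gene IDs, 17252 matched Ensembl release 115, which gave symbols, positions and exon lengths. The 9 genes and all gene lists were chosen with earlier results of these data known, as were the genes named. Those were the 9 genes, the listed genes called in a comparison, the Hsp70 genes whatever their values and 5 further genes (Hsc70-4, lncRNA:Hsromega, stv, Stip1 and Droj2). Also named were the 3 genes outside the 9 most correlated with a member. Named besides were the targeted genes fne and Rbp9, annotated genes that overlap the cluster, and the fat body markers Fbp1 and Lsp2. Genes with a mean normalized count above 10 were tested (10538) in 1 edgeR 4.0.16 quasi-likelihood fit over 20 libraries (R 4.3.3, limma 3.58.1) with TMM scaling and Benjamini-Hochberg adjustment over all genes. CPM was computed on the total count times the TMM factor. Alternatives were total-count scaling, DESeq2 size factors, DESeq2 1.42.0, no filter, no fold change threshold, fits of the compared groups only, a replicate block and leaving out each library. Libraries held 10289950 to 25325636 counts, and no 2 libraries of a genotype agreed within sampling noise (lowest chi-square per degree of freedom 5.46 over 40 pairs).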

Additional observations from a re-analysis of the deposited data

Results flagged for a closer look

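Hsp23 in ΔfneΔrbp9 library 2 stood apart from the other libraries of its genotype, at 82.5 CPM against 47.6 to 55.8 CPM in the other 4 (gap over range 0.765, critical value 0.71). It was the 1 such case among 32 combinations of gene and genotype, and chance gives about 1 in 20. That library is also 1 of the 5 high in Hsp68.

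The effect of losing fne differed with the state of rbp9 (edgeR interaction term, log2 scale) for Hsp83, at -0.56, and for 8 other chaperone or stress genes. The calls were 1 of the 8 genes described, 3 of 17 constitutive chaperones and 3 of 18 co-chaperones. Of the other lists they were 1 of 14 heat shock family genes, 1 of 12 oxidative and JNK stress genes and 0 of 12 unfolded protein response genes. Beside these stands a share of 8.97% of all genes. The interaction was negative for CCT1 (-0.61), CCT5 (-0.54) and Hsp60A (-0.54), which encode chaperonin subunits, and for the co-chaperone genes jdp (-0.54), CG5504 (-0.54) and Roe1 (-0.53). It was positive for l(2)efl (1.35) and Thor (1.62). Without the 5 libraries highest in Hsp68, the calls of Hsp83, CCT5, Hsp60A, CG5504 and Thor ended, and those of CCT1, jdp, Roe1 and l(2)efl remained. With libraries 4 and 5 only these ended as well (edgeR adjusted p = 0.0101, 0.0272, 0.0119 and 0.0724), so that none of the 9 was called. In the fit of 20 libraries, the interaction was called for 945 genes, which is 8.97% of all genes. Without the 5 libraries it was called for 528 genes, and with libraries 4 and 5 only for 165. Calls over all genes thus fell with the number of libraries, and a lost call does not by itself show a lost difference.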

How the results depend on the processing

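The 2 sets of libraries below were chosen after seeing the data, and the cause of each change was not tested. For total-count scaling, DESeq2, fits of the compared groups and the replicate block, no share of all genes is given. Counts are genes called, with comparisons in the order Δfne, Δrbp9 and ΔfneΔrbp9 against wild type, ΔfneΔrbp9 against Δfne, ΔfneΔrbp9 against Δrbp9, and the interaction, unless named.

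By total-count scaling, 3 of the 8 genes were called in Δrbp9, 5 constitutive chaperones in the interaction and 5 in any comparison, and the Hsf value reversed to 0.03 in Δrbp9 and -0.01 in the interaction. DESeq2 called 4 of the 8 in Δrbp9, and of the other heat shock family 2 (Δfne) and 7 (Δrbp9). Fits of the compared groups only called 3 of that family in Δfne and 0 oxidative stress genes in Δrbp9. The replicate numbers did not pair the libraries (r of same-numbered deviations -0.395 to 0.518, over 0.1 in 9 of 30, and best with the own number in 4). With a replicate block, 2 of the 8 were called in Δrbp9 and 2 of the other heat shock family in Δfne.

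Without a fold change threshold, all genes gave 2029, 2426, 2645, 1993, 1612 and 1752. The 8 genes gave 2 in Δrbp9. Constitutive chaperones gave 5, 11, 4, 5, 12 and 12, and 15 in any comparison. Co-chaperones gave 5, 7, 7, 2, 3 and 5, and 9 in any. Unfolded protein response genes gave 2 in Δfne, 2 in ΔfneΔrbp9, 3 against Δfne, 1 in the interaction and 4 in any. Oxidative stress genes gave 2, 4, 1, 1, 2 and 3, and 6 in any. The other heat shock family gave 3 in Δfne and 3 against Δrbp9.

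Without the 5 libraries highest in Hsp68, all genes gave 488 in Δrbp9, 177 against Δrbp9 and 528 in the interaction. The 8 genes gave 0 in Δrbp9, 0 in ΔfneΔrbp9, 2 against Δfne and 1 against Δrbp9. The other heat shock family gave 3 in Δfne, 0 in Δrbp9, 2 in ΔfneΔrbp9 and 5 in any, constitutive chaperones 1 in the interaction and 1 in any, and oxidative stress genes 0 in Δrbp9 and 0 against Δrbp9. Values reversed for Hsp26 (-0.30), Hsp27 (-0.23) and Hsp68 (-0.04) in Δrbp9, for Hsp67Bc (-0.18) in ΔfneΔrbp9, for Hsp26 (-0.29), Hsp27 (-0.07) and Hsp68 (-0.16) against Δfne, for Hsp26 (0.37), Hsp27 (0.57) and Hsp68 (0.29) against Δrbp9, and for Hsp26 (0.0042) and Hsp27 (0.16) in the interaction.

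With libraries numbered 4 and 5 only, all genes gave 458, 318, 487, 223, 72 and 165. The 8 genes gave 1 in Δfne, 0 in Δrbp9 and 0 in ΔfneΔrbp9. Co-chaperones gave 1 in Δrbp9, 1 in ΔfneΔrbp9 and 0 in the interaction. The other heat shock family gave 0 in Δfne, 0 in Δrbp9, 1 in ΔfneΔrbp9, 1 against Δfne, 0 in the interaction and 1 in any. Constitutive chaperones gave 1 in the interaction and 1 in any, and oxidative stress genes 0 in Δrbp9, against Δrbp9, in the interaction and in any. Values reversed for Hsp26 (-0.24) in Δrbp9, Hsp67Bc (-0.24) in ΔfneΔrbp9, DnaJ-1 (-0.03) against Δfne, Hsp26 (0.31), Hsp27 (0.59) and Hsp68 (0.28) against Δrbp9, and Hsp26 (0.28) and Hsp27 (0.58) in the interaction.

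Leaving out 1 library at a time, the 8 genes gave 0 to 5 in Δrbp9, 0 to 1 against Δrbp9 and 0 to 2 in the interaction. The other heat shock family gave 2 to 7 in Δrbp9, 2 to 6 in ΔfneΔrbp9, 1 to 2 against Δfne, 0 to 1 against Δrbp9 and 5 to 9 in any. Constitutive chaperones gave 0 to 1 in Δrbp9, 1 to 5 in the interaction and 1 to 5 in any, co-chaperones 0 to 1 against Δfne, and oxidative stress genes 1 to 2 in the interaction and 1 to 2 in any. Without Δrbp9 library 2 the values against Δrbp9 reversed for Hsp26 (range over these fits -1.08 to 0.08), Hsp27 (-0.83 to 0.09), Hsp68 (-1.11 to 0.01) and DnaJ-1 (-0.27 to 0.01), with the lower ends without ΔfneΔrbp9 library 2, and without ΔfneΔrbp9 library 2 that of Hsp67Bc against wild type (-0.01).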

Other observations

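In wild type the libraries also had an order. Library 3 was the highest and library 4 the lowest for Hsp27, Hsp68 and the 6 Hsp70 genes, over a smaller range: Hsp68 covered 38.8 to 80.7 CPM, and Hsp70Ab 6.26 to 13.4 CPM. In Δfne, library 2 was the highest for Hsp26, Hsp27, Hsp68 and DnaJ-1, and Hsp68 covered 43.2 to 125 CPM.

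The ratio of Hsp68 to Hsp70Ab was 2.63 to 3.43 in ΔfneΔrbp9, against 5.19 to 6.21 in wild type, with no overlap, and 4.24 to 6.01 in Δrbp9 and 3.25 to 6.11 in Δfne, which overlapped wild type. The Hsp70 copies share reads, which bears on the denominator.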
